A study of Mus musculus with 8 samples.

Results

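The genes described here mark basophils, mast cells and eosinophils, the granulated cells of allergic and anti-parasite responses, and were followed in 3 populations of dendritic cell (DC) progenitors. They are 10 genes chosen by name out of 19938 that a probe set names alone: the IgE receptor chains Fcer1a and Ms4a2, the granule proteases Cpa3, Prss34 and Mcpt8, the histamine-forming enzyme Hdc, the eosinophil granule proteins Prg2 and Epx, and the transcription factors Gata1 and Gata2. All 10 have a single probe set on the array. A total of 8 entered the test, which was run on the 13356 genes with signal above the array's own 40th percentile on at least 2 arrays. Ms4a2 and Gata1 lay below that percentile on all 8 arrays and are given as values.

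Basophils and mast cells carry the high-affinity IgE receptor, whose alpha chain binds the antibody and whose beta and gamma chains pass the signal inward. When antigen cross-links the bound IgE, both cell types release histamine and proteases stored in granules, while eosinophil granules hold toxic basic proteins and a peroxidase. All 3 cell types arise in the bone marrow from myeloid progenitors, under GATA transcription factors that also drive the erythroid and megakaryocyte lineages.

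Each array held RNA of cells sorted from bone marrow of mice heterozygous for a reporter in which Zeb2, a transcriptional repressor, is fused to GFP. Common DC progenitors (CDPs) can form classical as well as plasmacytoid DCs. They were split by the reporter into Zeb2hi CDPs (3 arrays) and Zeb2low CDPs (3 arrays), and pre-CD8 DCs, the precursors of the CD8a+ classical DC, have 2 arrays. All 3 groups carry the reporter and the labels name no treatment. Ages, sort markers and mice per sample are likewise absent from the labels, which do not say that arrays of a group came from separate mice. The p-values therefore cover only the spread between arrays, which may be technical. RNA was amplified from picogram to nanogram amounts before hybridisation, and signals are robust multi-array average (RMA) values, given here as log2.

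The Zeb2 transcript followed the labels, with log2 signals of 9.05 to 9.45 on the Zeb2hi, 7.49 to 7.86 on the Zeb2low and 6.53 to 6.93 on the pre-CD8 DC arrays. Flt3, the receptor that DC progenitors depend on, lay between 9.07 and 9.63 on all 8 arrays. Median signals per array were 4.91 to 5.14, the 40th percentiles 4.31 to 4.62, and correlations between arrays of 1 group 0.937 (the pre-CD8 DC pair) to 0.989. In sorted bulk samples, fewer cells of a type and less RNA per cell cannot be told apart.

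Against Zeb2hi CDPs, Zeb2low CDPs had higher Cpa3 and Fcer1a, and pre-CD8 DCs had higher Fcer1a. No member passed between pre-CD8 DCs and Zeb2low CDPs. Of the 8 members tested, 2 were called higher in Zeb2low than in Zeb2hi CDPs (limma, adjusted p under 0.05), where 4.5% of all genes tested were called higher and 14.8% in either direction. For pre-CD8 DCs against Zeb2hi CDPs 1 of 8 was called, beside 6.51% of all genes called higher and 17.6% in either direction. For pre-CD8 DCs against Zeb2low CDPs 0 of 8 were called by limma, and 0 had an unadjusted p under 0.05, beside 0.337% of all genes called higher and 0.554% in either direction. These shares do not support a statement about the members as a group, since Cpa3 and Fcer1a passed the signal filter only through the groups in which they are high. Any 2 of these comparisons share the arrays of 1 group, so their values are not independent.

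All Zeb2low arrays lay above all Zeb2hi arrays for 4 of 10 members (Fcer1a, Ms4a2, Cpa3 and Gata2). Among the 8 tested members these were 3, beside 20.2% of all genes tested that were higher without overlap. Pre-CD8 DC arrays lay above all Zeb2hi arrays for 6 of 10, with Prss34 and Mcpt8 in addition. Among the 8 tested these were 5, beside 21.4% of all genes tested. Fcer1a and Cpa3 are among the 3 and among the 5. Both passed the filter only through the groups in which they are high, and both enter the medians given below. Neither these counts nor those medians support a statement about the members as a group. Pre-CD8 DC arrays lay above all Zeb2low arrays for 0 of 10, beside 12.4% of all genes tested. Lower without overlap were 0 of 10 members in each comparison. The share of all genes tested was not counted for this direction, so nothing is read from that count. The median difference of the tested members was 0.83 for Zeb2low against Zeb2hi CDPs, 1.10 for pre-CD8 DCs against Zeb2hi CDPs, but 0.03 for pre-CD8 DCs against Zeb2low CDPs. Over all 10 members, those below the filter included, the medians were 0.74, 0.70 and 0.04. The medians of all genes tested were 0.03, -0.02 and -0.03 in the same order. Without the filter, the medians of all 19938 genes were 0.10, 0.05 and -0.04. Of all genes tested, 52.2%, 48.5% and 46.3% had differences above 0. In the plot of the 10 genes by array, spread within a group is as visible as the differences between groups.

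**Figure D1:**
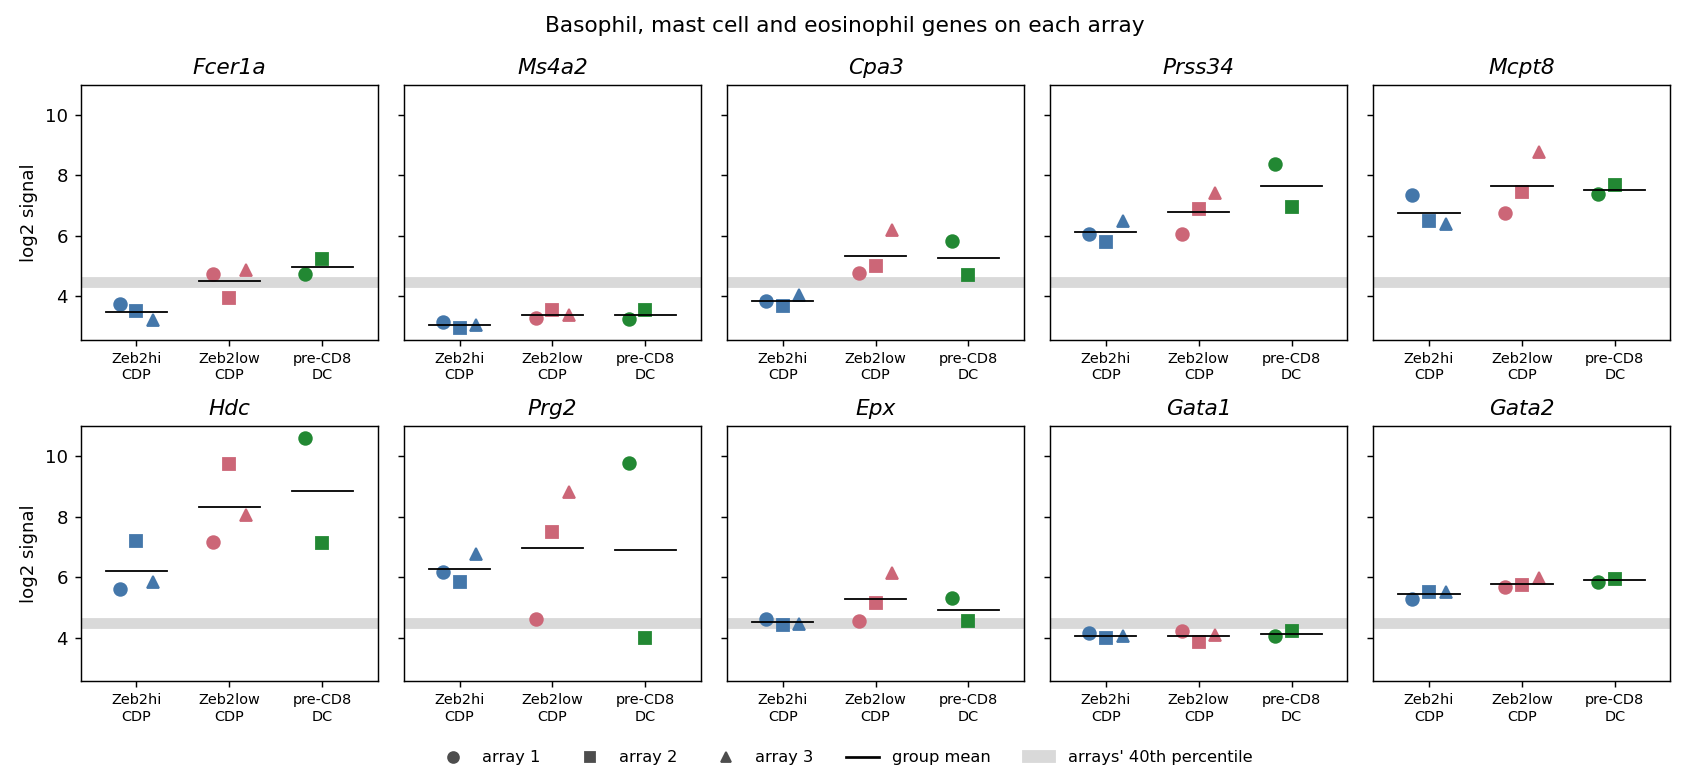
Log2 signal (vertical axis) of the 10 genes on each of the 8 arrays, by group, with a marker shape for each replicate number, a line at the group mean and a grey band for the range of the arrays' 40th percentiles (4.31 to 4.62). Ms4a2 and Gata1 lie under the band on all arrays, Fcer1a and Cpa3 on the 3 Zeb2hi arrays, and Prg2 spreads from 3.98 to 9.77 within the pre-CD8 DC pair.

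The calls between the CDP fractions depended on single arrays and on scaling. Leaving out Zeb2hi array 2, Zeb2hi array 3 or Zeb2low array 3 left 0 of the 2 calls, and 1 remained without Zeb2hi array 1, Zeb2low array 1 or Zeb2low array 2. Quantile normalization and centring on array medians each left 0. Centring moved the median difference of all genes from 0.03 to -0.14, and the share of higher genes among all calls was 30.4% as deposited, 40.9% after quantile normalization and 14.2% after centring. The number of all genes called fell from 1978 to 521 without Zeb2hi array 2, 574 without Zeb2hi array 3, 1054 without Zeb2low array 2 and 1008 without Zeb2low array 3. A block on the replicate number, fitted to the 6 CDP arrays, gave 4070, among them 3 members (Cpa3, Fcer1a and Hdc).

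**Figure D2:**
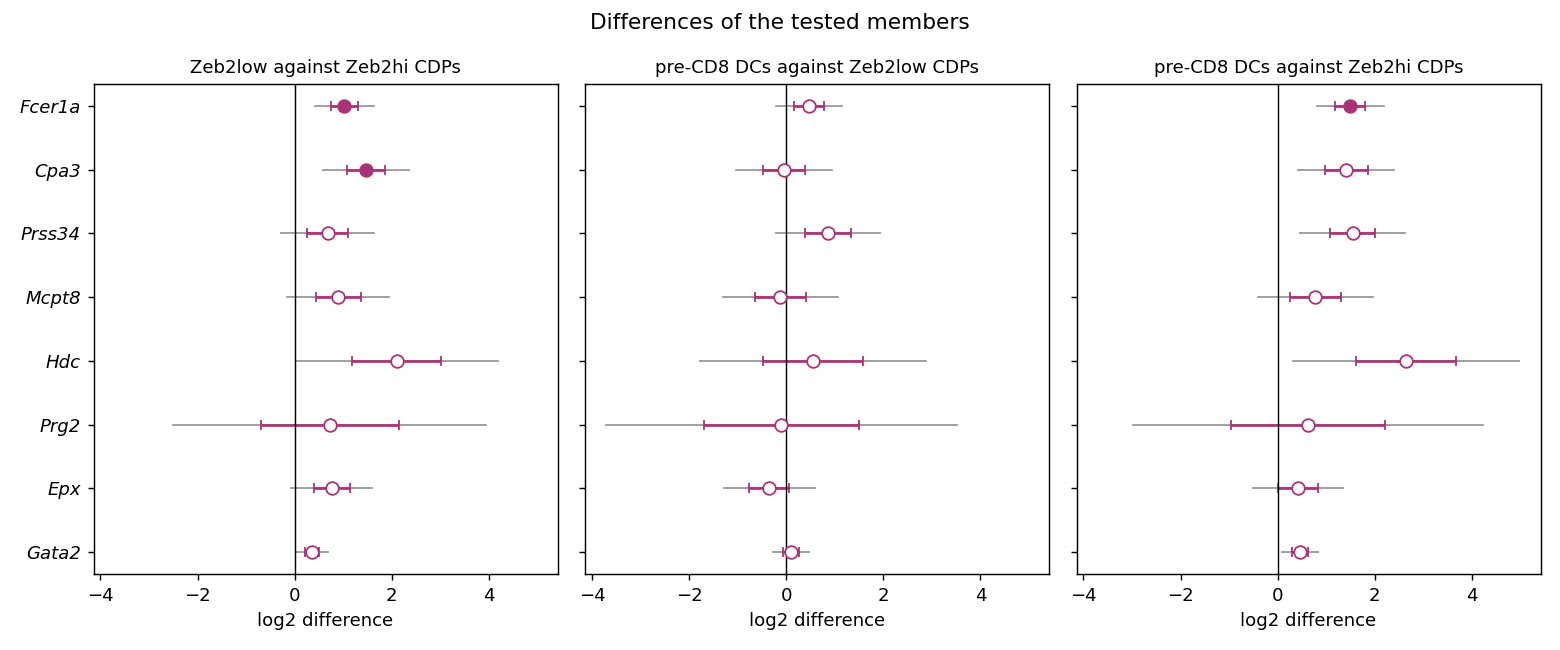
Log2 difference (horizontal axis) of the 8 tested members in the 3 comparisons, with the standard error as a thick bar and the 95% confidence interval as a thin line, filled where the adjusted p is under 0.05. Fcer1a and Cpa3 are filled for Zeb2low against Zeb2hi CDPs, Fcer1a alone in the panel that sets pre-CD8 DCs against Zeb2hi CDPs. The Prg2 interval is the widest of the 8 in each panel.

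GATA factors bind short motifs around the letters GATA, and the stretch just before the start of several of these genes holds such letters. The 250 bases before the annotated start (RefSeq, GRCm38.p6) are shown for the 5 members with a match, called and uncalled, so that both can be read side by side. Capitals mark each match, on either strand, to one of 4 motifs: AGATAA, the same with T as its first base (TGATAA), the same with G as its last base (AGATAG), and the motif that has both of these bases (TGATAG). A motif on the opposite strand reads as its reverse complement. No 2 matches overlapped.
Fcer1a, chr1:173227230-173227479, minus strand: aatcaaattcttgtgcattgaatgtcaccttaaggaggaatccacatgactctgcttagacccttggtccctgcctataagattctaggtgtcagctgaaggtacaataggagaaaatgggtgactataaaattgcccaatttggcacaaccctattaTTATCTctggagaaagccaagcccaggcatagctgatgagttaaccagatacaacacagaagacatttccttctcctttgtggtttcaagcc
Ms4a2, chr19:11623720-11623969, minus strand: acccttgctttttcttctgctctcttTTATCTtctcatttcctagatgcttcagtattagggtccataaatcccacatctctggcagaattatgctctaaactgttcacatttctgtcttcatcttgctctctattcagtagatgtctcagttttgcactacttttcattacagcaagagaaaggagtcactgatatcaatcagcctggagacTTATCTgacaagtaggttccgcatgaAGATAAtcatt
Cpa3, chr3:20242182-20242431, minus strand: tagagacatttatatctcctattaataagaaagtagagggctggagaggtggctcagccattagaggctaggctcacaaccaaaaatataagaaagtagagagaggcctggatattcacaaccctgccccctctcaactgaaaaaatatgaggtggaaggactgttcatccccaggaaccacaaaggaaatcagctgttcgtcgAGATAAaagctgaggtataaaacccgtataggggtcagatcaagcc
Prss34, chr17:25298144-25298393, plus strand: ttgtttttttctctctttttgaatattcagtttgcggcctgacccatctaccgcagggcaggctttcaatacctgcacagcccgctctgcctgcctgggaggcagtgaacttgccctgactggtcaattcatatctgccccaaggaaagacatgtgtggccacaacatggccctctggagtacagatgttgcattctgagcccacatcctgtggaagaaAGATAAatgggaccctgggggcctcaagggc
Hdc, chr2:126618679-126618928, minus strand: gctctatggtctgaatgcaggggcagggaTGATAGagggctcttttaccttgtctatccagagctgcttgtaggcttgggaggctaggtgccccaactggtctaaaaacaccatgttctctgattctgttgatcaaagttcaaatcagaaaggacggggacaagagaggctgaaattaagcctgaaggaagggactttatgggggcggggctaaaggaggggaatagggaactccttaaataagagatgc

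Ms4a2 had 3 matches, at 11 to 6, 37 to 32 and 224 to 219 bases before the start. Cpa3 had AGATAA at 46 to 41 bases, Prss34 at 31 to 26 bases and Fcer1a, on the opposite strand, at 92 to 87 bases, while Hdc had TGATAG at 221 to 216 bases. No match lay in the windows of Epx, Gata1, Gata2 or Mcpt8. The table has no entry for Prg2. Of the 9 members with a window, 5 had a match, where 26.5% of all 32851 windows of this length had at least 1 and 1.35% at least 3. The presence of these letters is a description of the sequence and shows neither binding nor a cause, and Prss34 and Ms4a2 carry them with and without signal above the filter.

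Fcer1a encodes the IgE-binding alpha chain of the receptor. Its log2 signal was 3.74, 3.53 and 3.21 on Zeb2hi arrays 1, 2 and 3, then 4.74, 3.93 and 4.88 on Zeb2low arrays 1, 2 and 3, and 4.75 and 5.23 on the pre-CD8 DC arrays. Every Zeb2low and pre-CD8 DC array was above every Zeb2hi array, and Zeb2low array 2 was the lowest of those. The Zeb2hi signals were below the 40th percentile, a range in which array signals understate differences. The mean was 3.49 ± 0.27 (SD, n = 3) in Zeb2hi CDPs, 4.52 ± 0.51 (SD, n = 3) in Zeb2low CDPs and 4.99 ± 0.34 (SD, n = 2) in pre-CD8 DCs.

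Fcer1a rose 2.04-fold from Zeb2hi to Zeb2low CDPs (log2 difference 1.03 ± 0.27, SE, adjusted p = 0.0368), and was 2.82-fold higher in pre-CD8 DCs than in Zeb2hi CDPs (1.49 ± 0.30, adjusted p = 0.0121). Pre-CD8 DCs and Zeb2low CDPs differed by 0.47 ± 0.30 (adjusted p = 0.542), with a 95% interval from -0.22 to 1.16. Omitting single arrays ended the first call for Zeb2hi array 2 (adjusted p = 0.110) or 3 (0.136) and for Zeb2low array 1 (0.0905) or 3 (0.110). It was also lost after quantile normalization (0.0664), centring (0.0515) and a replicate block over all arrays (0.0776), but not with a block fitted to the 6 CDP arrays (0.0178). The second call was lost only when pre-CD8 DC array 2 was left out among the 8 single omissions (adjusted p = 0.0620), and was lost when Zeb2low array 3 and Zeb2hi array 3 were both left out.

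Ms4a2 encodes the beta chain, which amplifies signalling from the receptor in basophils and mast cells. Its signal was 2.96 to 3.15 on the Zeb2hi, 3.27 to 3.55 on the Zeb2low and 3.25 and 3.55 on the pre-CD8 DC arrays, below the 40th percentile throughout. In a fit without the filter the difference between Zeb2low and Zeb2hi CDPs was 0.35 ± 0.14 (adjusted p = 0.138). The gamma chain gene Fcer1g, shared with other Fc receptors and expressed across myeloid cells, lay between 11.15 and 12.08 on all 8 arrays and passed in none of the 3 comparisons. The alpha chain probe set thus differed between groups, the beta chain probe set stayed near the floor, and the gamma chain probe set had signal in all groups.

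Cpa3 encodes carboxypeptidase A3, a granule enzyme of mast cells that basophils and their progenitors also transcribe. Its signal was 3.84, 3.69 and 4.05 on Zeb2hi arrays 1, 2 and 3, then 4.79, 5.00 and 6.18 on Zeb2low arrays 1, 2 and 3, and 5.84 and 4.71 on the pre-CD8 DC arrays. No Zeb2hi array reached the 40th percentile, all 5 others did, and Zeb2low array 3 was the highest. Group means were 3.86 ± 0.18 (SD, n = 3), 5.32 ± 0.75 (SD, n = 3) and 5.28 ± 0.79 (SD, n = 2).

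Cpa3 rose 2.76-fold in Zeb2low over Zeb2hi CDPs (1.47 ± 0.39, adjusted p = 0.0378). Pre-CD8 DCs were 2.67-fold above Zeb2hi CDPs by the point estimate, which did not pass (1.42 ± 0.44, adjusted p = 0.0553). Pre-CD8 DCs and Zeb2low CDPs differed by -0.05 ± 0.44 (adjusted p = 0.970), with a 95% interval from -1.04 to 0.94. The Zeb2low call did not survive omission of Zeb2hi array 1 (adjusted p = 0.0763), 2 (0.131) or 3 (0.0977), or Zeb2low array 2 (0.0620) or 3 (0.0833), after quantile normalization (0.0844) and after centring (0.0593). The pre-CD8 DC difference passed without pre-CD8 DC array 2 (1.98, adjusted p = 0.0325), Zeb2low array 1 (0.0427) or Zeb2low array 3 (0.0251), and was 0.86 (adjusted p = 0.301) without pre-CD8 DC array 1.

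Prss34 encodes a serine protease that mouse basophils make. Its signal was 6.07, 5.79 and 6.48 on the Zeb2hi arrays, 6.07, 6.89 and 7.42 on the Zeb2low arrays and 8.36 and 6.95 on the pre-CD8 DC arrays. The 2 pre-CD8 DC arrays lay above all Zeb2hi arrays, while Zeb2low array 1 was within the Zeb2hi range. The difference of pre-CD8 DCs from Zeb2hi CDPs was 1.54 ± 0.47 (2.91-fold, adjusted p = 0.0546). It passed without pre-CD8 DC array 2 (2.25, adjusted p = 0.0219) or Zeb2low array 1 (0.0322), and after quantile normalization (0.0499), but was 0.84 (adjusted p = 0.309) without pre-CD8 DC array 1. Zeb2low CDPs differed from Zeb2hi CDPs by 0.68 ± 0.42 (adjusted p = 0.287) and pre-CD8 DCs from Zeb2low CDPs by 0.86 ± 0.47 (adjusted p = 0.467).

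Mcpt8 encodes a serine protease used as a marker of mouse basophils. Its signal was 7.34, 6.50 and 6.40 on the Zeb2hi arrays, 6.74, 7.44 and 8.76 on the Zeb2low arrays and 7.39 and 7.66 on the pre-CD8 DC arrays. Zeb2low array 3 stood highest and the CDP fractions overlapped. No comparison passed, with 0.90 ± 0.47 (adjusted p = 0.212) for Zeb2low against Zeb2hi CDPs, -0.12 ± 0.52 (adjusted p = 0.942) for pre-CD8 DCs against the Zeb2low fraction and 0.78 ± 0.52 (adjusted p = 0.347) against the Zeb2hi fraction. Mcpt8 and the mast cell chymases belong to a family of similar genes, and cross-hybridisation between them was not tested.

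The array that was highest for Cpa3 and Mcpt8, Zeb2low array 3, was also the highest for the erythroid carbonic anhydrase genes Car1 and Car2. Car1 had signals of 4.07, 3.91 and 4.80 on the Zeb2hi arrays, 4.63, 4.97 and 9.49 on the Zeb2low arrays and 7.15 and 7.33 on the pre-CD8 DC arrays. The linear signal summed over 12 erythroid and megakaryocyte markers was 259 to 284 on the Zeb2hi arrays, 345, 369 and 1283 on Zeb2low arrays 1, 2 and 3, and 513 to 542 in pre-CD8 DCs. The list's median log2 signal differed less, at 4.33 to 4.50 on the Zeb2hi arrays, 4.89, 4.96 and 5.02 on the Zeb2low arrays and 4.95 on both pre-CD8 DC arrays. On Zeb2low array 3 most of the sum came from Car1 and Car2 (log2 signal 8.10). The megakaryocyte genes did not share 1 order in the Zeb2low group. Pf4, Gp9 and Itga2b were at their lowest on array 3, Itga2b by little (4.96, 4.96 and 4.91). Ppbp was at its highest there (3.16, 3.21 and 3.32), and Vwf was lowest on array 1 (5.48, 5.69 and 5.60). Of the 9 markers tested, 1 passed for Zeb2low against Zeb2hi CDPs and all 9 differences were above 0. The count was 0 without Zeb2hi array 2, Zeb2hi array 3, Zeb2low array 2 or Zeb2low array 3, and 2 without Zeb2hi array 1 or either pre-CD8 DC array. Rhag, an erythroid membrane protein gene, was at 2.55 to 3.37 on all arrays, and Klf1, a red cell transcription factor gene, at 5.09 on Zeb2low array 3 and 3.68 to 4.35 on the others. The part of erythroid markers in the Cpa3 and Mcpt8 signals was not tested.

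Hdc encodes histidine decarboxylase, the only enzyme that makes histamine, and is expressed in basophils and mast cells and also in immature neutrophils. Its signal was 5.61, 7.18 and 5.83 on Zeb2hi arrays 1, 2 and 3, then 7.17, 9.73 and 8.04 on Zeb2low arrays 1, 2 and 3, and 10.60 and 7.11 on pre-CD8 DC arrays 1 and 2. Zeb2low array 1 and pre-CD8 DC array 2 lay just under Zeb2hi array 2, so the groups overlapped. The differences were large but did not pass, at 2.10 ± 0.92 (4.30-fold, adjusted p = 0.149) for Zeb2low and 2.65 ± 1.03 (6.28-fold, adjusted p = 0.112) for pre-CD8 DCs over Zeb2hi CDPs. Pre-CD8 DCs and Zeb2low CDPs differed by 0.55 ± 1.03 (adjusted p = 0.845).

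Within same-numbered CDP arrays Hdc was higher in the Zeb2low member by 1.56, 2.54 and 2.21. A block on the replicate number in the 6 CDP arrays made the 2.10 difference pass (adjusted p = 0.00115). It also passed with array weights (adjusted p = 0.0331) and without Zeb2low array 1 and pre-CD8 DC array 1 together (2.67, adjusted p = 0.0248). With all 8 arrays in the blocked fit it did not pass (adjusted p = 0.220), nor did it in a fit of the 6 CDP arrays without the block (0.0638) or in any of the 8 fits without 1 array. The difference of pre-CD8 DCs from Zeb2hi CDPs was 4.39 (adjusted p = 0.0211) without pre-CD8 DC array 2 and 0.91 (adjusted p = 0.575) without pre-CD8 DC array 1.

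Within each group the array with the highest Hdc also had the highest signal of mature neutrophil markers. The median log2 signal of 14 such markers was 8.06, 9.28 and 7.50 on the Zeb2hi arrays, 8.74, 11.26 and 10.57 on the Zeb2low arrays and 11.84 and 10.14 on the pre-CD8 DC arrays. Their summed linear signal was 11278 to 21603 in Zeb2hi CDPs, 23750 to 50670 in Zeb2low CDPs and 30643 to 61010 in pre-CD8 DCs. Ly6g, a surface marker of neutrophils, ranged from 4.19 on Zeb2hi array 3 to 10.80 on pre-CD8 DC array 1. All 14 differences were above 0 for Zeb2low against Zeb2hi CDPs and 3 passed (Lcn2, Ngp and S100a8), but 0 passed without Zeb2hi array 1, Zeb2hi array 3, Zeb2low array 2 or Zeb2low array 3, 1 without Zeb2hi array 2 or either pre-CD8 DC array, and 6 without Zeb2low array 1. For pre-CD8 DCs against Zeb2hi CDPs 4 passed, but 0 without Zeb2hi array 1, Zeb2hi array 3 or pre-CD8 DC array 1, 7 without Zeb2low array 1 and 9 without pre-CD8 DC array 2. All 14 lay above the 40th percentile on 6 of the 8 arrays, among them every Zeb2low and pre-CD8 DC array, and the part of neutrophil RNA in the Hdc signal was not tested. By likeness of profile over the 8 arrays, the genes nearest to Hdc were Lilr4b, Alox5 and Cd300lf, with root mean square differences of 0.21, 0.24 and 0.25 on the log2 scale. This search for Hdc was added after its values were seen. Of these genes Alox5 is on the basophil list described below, and none is among the 14 neutrophil markers. The Hdc pattern was thus not limited to neutrophil markers.

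**Figure D3:**
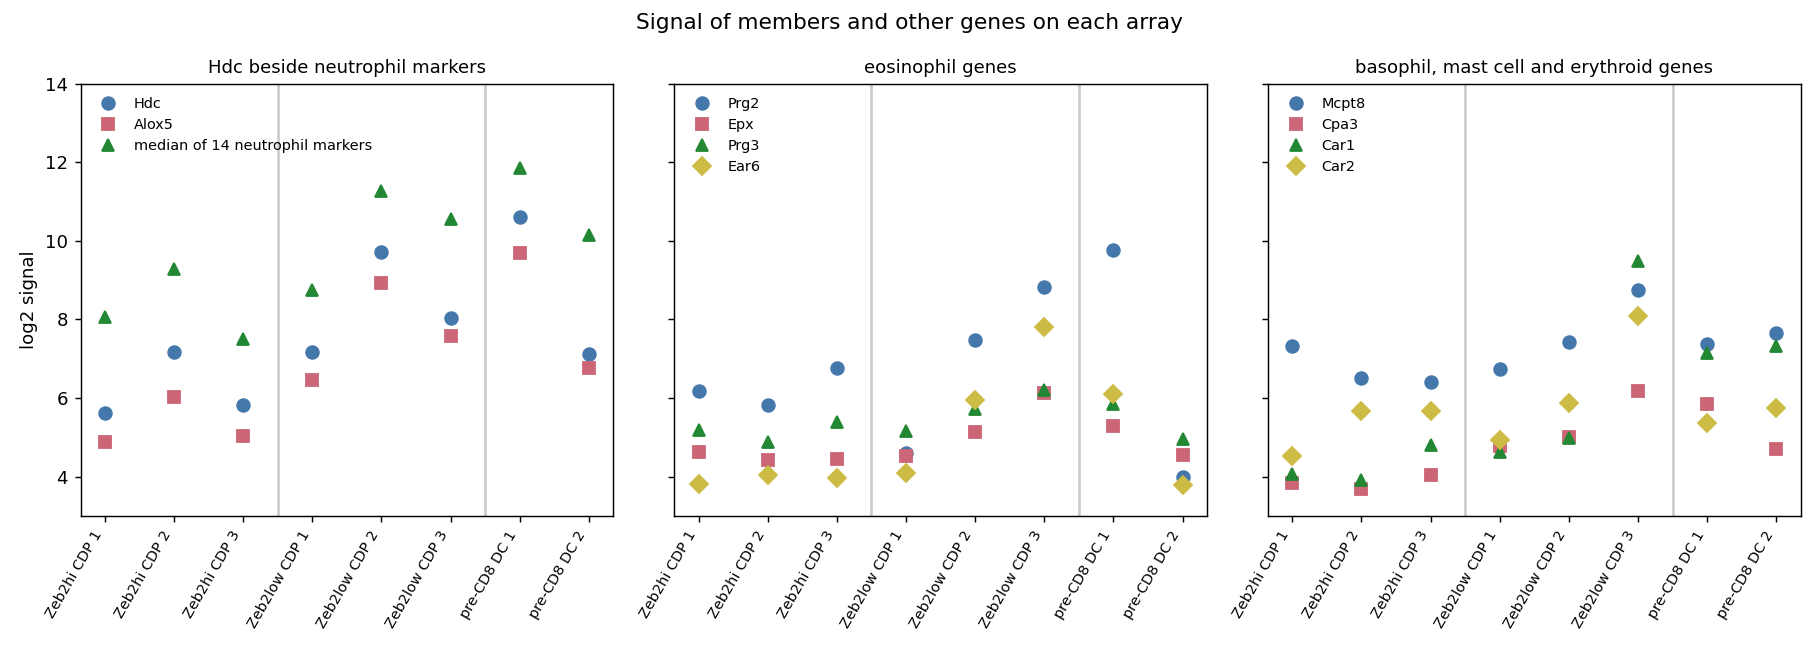
Log2 signal (vertical axis) on each of the 8 arrays (horizontal axis, divided by group) for Hdc with Alox5 and the median of 14 neutrophil markers, for the eosinophil genes Prg2, Epx, Prg3 and Ear6, and for Mcpt8 and Cpa3 with the erythroid genes Car1 and Car2. Alox5 belongs to the basophil list. Hdc peaks on Zeb2hi array 2, Zeb2low array 2 and pre-CD8 DC array 1 within the groups, while Mcpt8, Cpa3, Epx and Ear6 have their highest values on Zeb2low array 3.

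Prg2 encodes major basic protein, the main protein of the eosinophil granule core, which is also made in basophils. Its signal was 6.18, 5.83 and 6.76 on the Zeb2hi arrays, 4.61, 7.49 and 8.83 on Zeb2low arrays 1, 2 and 3, and 9.77 and 3.98 on pre-CD8 DC arrays 1 and 2. The highest and the lowest of the 8 values were thus the 2 arrays of pre-CD8 DCs, 55.3-fold apart. Zeb2low array 3 was 18.5-fold above Zeb2low array 1, while the Zeb2hi arrays lay within 1.90-fold. By residual spread within groups Prg2 ranked 2 of 13356 genes.

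No Prg2 difference passed, with 0.72 ± 1.42 (adjusted p = 0.741) for Zeb2low against Zeb2hi CDPs, -0.10 ± 1.59 (adjusted p = 0.986) for pre-CD8 DCs against the Zeb2low fraction and 0.62 ± 1.59 (adjusted p = 0.826) against the Zeb2hi fraction. The 95% interval of the first ran from -2.51 to 3.95, so these arrays limit the difference to no narrower range. Without Zeb2low array 1 and pre-CD8 DC array 1, both known from earlier results to stand apart, Prg2 was 1.90 higher in Zeb2low than in Zeb2hi CDPs (adjusted p = 0.0238), and the difference of pre-CD8 DC array 2 was -2.27 from Zeb2hi CDPs (adjusted p = 0.0300) and -4.17 from Zeb2low CDPs (adjusted p = 0.0444). In these fits the lone pre-CD8 DC array is assumed to vary like the other groups. The sign of the Prg2 differences thus followed which arrays were kept.

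Epx encodes eosinophil peroxidase. Its signal was 4.62, 4.43 and 4.46 on the Zeb2hi arrays, 4.53, 5.15 and 6.13 on Zeb2low arrays 1, 2 and 3, and 5.29 and 4.55 on pre-CD8 DC arrays 1 and 2. Zeb2low array 3 was highest and Zeb2low array 1 within the Zeb2hi range. The difference of Zeb2low from Zeb2hi CDPs was 0.77 ± 0.37 (adjusted p = 0.182), and pre-CD8 DCs differed from Zeb2low CDPs by -0.35 ± 0.41 (adjusted p = 0.751) and from Zeb2hi CDPs by 0.42 ± 0.41 (adjusted p = 0.528).

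Prg2 and Epx shared the order of arrays in Zeb2low CDPs and in pre-CD8 DCs. Cpa3 and Prss34 had the same order, so it was not limited to eosinophil genes. Of the other eosinophil genes, 2 that showed it were picked after their values were seen. Prg3, the neighbour and homologue of Prg2, had signals of 5.16, 5.71 and 6.21 on Zeb2low arrays 1, 2 and 3 and of 5.84 and 4.96 on the pre-CD8 DC arrays. Ear6, an eosinophil-associated ribonuclease with close paralogues among which a probe set may not distinguish, had 4.09, 5.96 and 7.82 and then 6.11 and 3.78. Prg3 was the gene nearest to Epx (root mean square difference 0.22) and Ear6 the gene nearest to Prg2 (1.10), in a search that was also added then. Siglecf, the lectin that marks mature mouse eosinophils, did not share the order, with 5.88, 5.85 and 5.63 on the Zeb2low and 5.55 and 5.62 on the pre-CD8 DC arrays, and neither did Cebpe, Adgre4, Adgre1, Alox15 and Ccr3. The same arrays were also high for neutrophil markers in pre-CD8 DCs (array 1), and for erythroid markers in Zeb2low CDPs (array 3), and the part of either was not tested. Il5ra, the interleukin 5 receptor chain that defines eosinophil progenitors, was at 2.43 to 2.99 on all 8 arrays, below the 40th percentile.

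Gata2 encodes a transcription factor of stem cells, mast cells and basophils. Its signal was 5.27, 5.51 and 5.51 on the Zeb2hi arrays, 5.67, 5.73 and 5.96 on the Zeb2low arrays and 5.84 and 5.94 on the pre-CD8 DC arrays. Neither Zeb2low CDPs nor pre-CD8 DCs overlapped Zeb2hi CDPs, and the steps were small beside those of Fcer1a and Cpa3. The differences from Zeb2hi CDPs were 0.35 ± 0.14 (adjusted p = 0.129) for Zeb2low CDPs and 0.46 ± 0.16 (1.37-fold, adjusted p = 0.0865) for pre-CD8 DCs, and 0.10 ± 0.16 (adjusted p = 0.813) lay between the latter groups. Gata2 ranked 11400 of 13356 by residual spread, so its small differences came with small errors on the deposited scale. They depended on that scale. The difference of Zeb2low from Zeb2hi CDPs was 0.19 after centring on array medians (limma, adjusted p = 0.421) and 0.31 after quantile normalization (0.202).

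Gata1 encodes the factor that drives eosinophil, mast cell, erythroid and megakaryocyte development. Its signal was 3.99 to 4.15 on the Zeb2hi, 3.85 to 4.22 on the Zeb2low and 4.06 and 4.22 on the pre-CD8 DC arrays, below the 40th percentile on each. The fit without a filter gave differences of -0.02 (adjusted p = 0.949), 0.08 (0.880) and 0.07 (0.839). A signal near the floor does not show that the gene was silent, only that no array measured it above the filter.

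For Fcer1a and Cpa3, the members that passed, the genes with the nearest profiles over the 8 arrays were sought among all genes tested. Nearest to Fcer1a were Tubb2a, Gpr155 and Lrba, with root mean square differences of 0.19, 0.20 and 0.23 on the log2 scale. Nearest to Cpa3 were Cd3d, Wipi1 and Cebpe, at 0.31, 0.37 and 0.39. No member was among these 6 genes. Cebpe, which encodes a factor of terminal neutrophil and eosinophil differentiation, is also on the eosinophil list described next.

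The other genes of these cell types were read from lists written for this work. Some genes are on more than 1 list, and their calls are counted in each. Cebpe is an eosinophil gene here and also on the later list of primary granule and promyelocyte genes. Ccr3 is on the basophil and the eosinophil list. Of 20 mast cell genes 8 were tested, and 1 rose and 1 fell in Zeb2low against Zeb2hi CDPs, with a list median of 0.28. The tetraspanin gene Cd63, which marks granule membranes but is widely expressed, rose 4.53-fold in Zeb2low CDPs (2.18 ± 0.16, adjusted p = 0.000271) and was 4.18-fold higher in pre-CD8 DCs than in Zeb2hi CDPs (adjusted p = 0.000301). Ctsg, a serine protease gene shared with neutrophil precursors, fell by 3.61 ± 0.39 (adjusted p = 0.00181). Both calls held in all 8 fits without 1 array. The connective tissue mast cell protease genes Cma1 (2.98 to 3.45) and Mcpt4 (3.45 to 3.99) and the mucosal protease genes Mcpt1 (2.34 to 2.78) and Mcpt2 (2.15 to 2.84) lay below the 40th percentile on all arrays. The tryptase gene Tpsb2, at 4.19 to 4.78, was close to that percentile and entered the test. It passed in none of the comparisons (0.24 ± 0.15, limma adjusted p = 0.285, for Zeb2low against Zeb2hi CDPs).

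Against Zeb2hi CDPs, 2 mast cell genes were higher and 1 lower in pre-CD8 DCs, the receptor gene Kit among the higher (1.02 ± 0.26, adjusted p = 0.0295). That call was lost without pre-CD8 DC array 1 (adjusted p = 0.0622) or 2 (0.134). In limma 0 of 8 passed for pre-CD8 DCs against Zeb2low CDPs.

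Of 20 basophil genes 15 were tested, with 1 higher and 0 lower in Zeb2low against Zeb2hi CDPs and a list median of 0.12. The gene was Ptgdr2, the prostaglandin D2 receptor CRTH2 of basophils, eosinophils and type 2 lymphocytes. It had 5.28, 5.55 and 5.49 on the Zeb2hi arrays, 6.40, 6.66 and 6.87 on the Zeb2low arrays and 6.89 and 7.22 on the pre-CD8 DC arrays. Ptgdr2 rose 2.30-fold in Zeb2low over Zeb2hi CDPs (1.20 ± 0.17, adjusted p = 0.00486) and was 3.06-fold higher in pre-CD8 DCs than in Zeb2hi CDPs (1.61 ± 0.19, adjusted p = 0.00138), and both calls held in all 8 fits without 1 array. Cd69 went the other way, with a difference of -2.14 ± 0.52 for pre-CD8 DCs against Zeb2hi CDPs (limma, adjusted p = 0.0240). That difference spanned -2.49 to -1.79 without 1 array. In this comparison the list had 2 higher (Ptgdr2 and Ccr3) and 1 lower (Cd69), with 9 of 15 differences above 0. This count of 3 was 1 without Zeb2hi array 2, Zeb2hi array 3 or pre-CD8 DC array 1 and 6 without pre-CD8 DC array 2, and that between the CDP fractions was 4 without either pre-CD8 DC array. Against Zeb2low CDPs 0 of 15 passed in limma. The basophil surface gene Cd200r3 was at 2.40 to 3.17 on all arrays and the cytokine gene Il4 at 3.70 to 4.29, below the 40th percentile.

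Of 16 eosinophil genes 9 were tested, and all 9 differences were above 0 against Zeb2hi CDPs for both Zeb2low CDPs (median 0.58) and pre-CD8 DCs (median 1.01). For Zeb2low CDPs 1 passed, Cebpe (1.44 ± 0.30, adjusted p = 0.0170), a call that ended without Zeb2hi array 2 (adjusted p = 0.0606) or 3 (0.0593) or Zeb2low array 2 (0.0522) or 3 (0.0581). For pre-CD8 DCs 4 passed, the adhesion receptor gene Adgre4 the furthest (1.73 ± 0.26, adjusted p = 0.00335). Without pre-CD8 DC array 1 the count was 1 and without any single Zeb2hi array 2. Against Zeb2low CDPs 0 of 9 passed in limma. Siglecf lay between 5.34 and 5.88 and passed in none of the comparisons.

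Of 14 tested genes that act below the IgE receptor, 2 rose in Zeb2low CDPs and 0 fell, with a list median of 0.02. Grap2, an adaptor gene of T cells and mast cells, rose 2.03-fold (1.02 ± 0.18, adjusted p = 0.00888) and was 4.66-fold higher in pre-CD8 DCs than in Zeb2hi CDPs (2.22 ± 0.20, adjusted p = 0.000337), both in all 8 fits without 1 array. The kinase gene Fyn rose in Zeb2low CDPs (0.91 ± 0.19, adjusted p = 0.0158) but did not pass without Zeb2hi array 2 (0.0693). From Zeb2low CDPs to pre-CD8 DCs 1 of 14 passed, again Grap2 (1.20 ± 0.20, adjusted p = 0.0399), in 0 of 8 fits without 1 array. Against Zeb2hi CDPs 3 of 14 were higher in pre-CD8 DCs, and 5 without Zeb2low array 1.

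Of 14 tested genes for partners of GATA factors, 3 fell in Zeb2low against Zeb2hi CDPs and 0 rose, with 2 differences above 0 and a list median of -0.28. Runx1, a factor of early haematopoiesis, fell by 1.19 ± 0.15 (adjusted p = 0.00290) and was 1.43 ± 0.17 lower in pre-CD8 DCs than in Zeb2hi CDPs (log2 difference -1.43, adjusted p = 0.00123), in all 8 fits without 1 array. Lmo2 and Lyl1, members of the haematopoietic complex that GATA factors join, fell by 1.10 ± 0.24 (adjusted p = 0.0210) and 1.15 ± 0.29 (adjusted p = 0.0322), but passed in only 4 and 3 of the 8 fits without 1 array. The list count was 1 without Zeb2hi array 2, Zeb2hi array 3, Zeb2low array 1 or Zeb2low array 3. For pre-CD8 DCs 1 passed against Zeb2hi CDPs, with 4 differences above 0, and 2 without Zeb2hi array 1, while 0 passed against Zeb2low CDPs in limma.

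**Figure D4:**
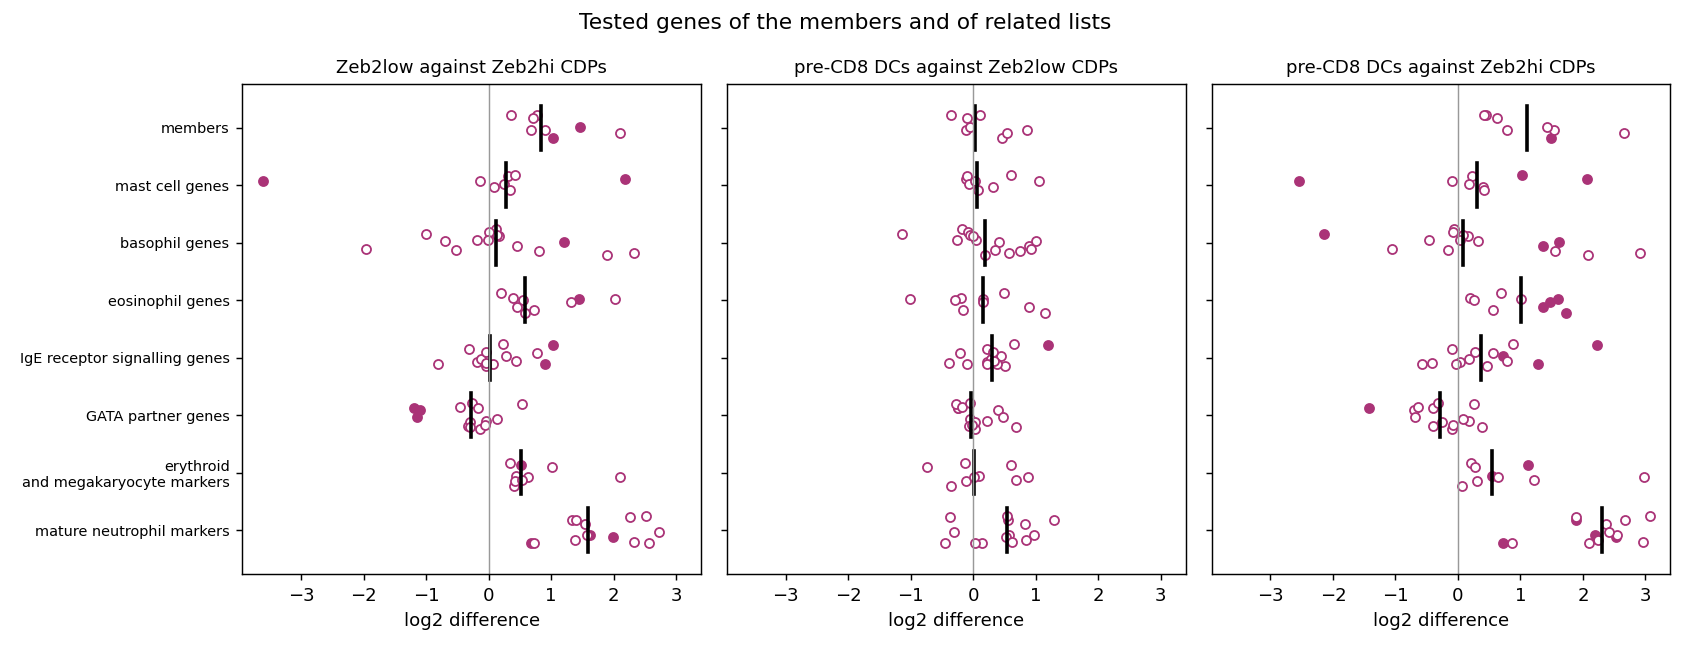
Log2 difference (horizontal axis) in the 3 comparisons for the tested genes among the 10 members and 7 related lists, 1 point per gene, filled where the adjusted p is under 0.05, with a line at each list's median. The members and eosinophil genes lie to the right of 0 in both comparisons with Zeb2hi CDPs. Among them Fcer1a, Cpa3, Ear6, Adgre4 and Ccr3 passed the signal filter only through arrays of the other groups. In the same comparisons the GATA partner genes lie on both sides of 0, with 2 of 14 above it for Zeb2low and 4 of 14 for pre-CD8 DCs.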

How the data were processed

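Gene expression was measured on 8 Affymetrix arrays, 3 of Zeb2hi CDPs, 3 of Zeb2low CDPs and 2 of pre-CD8 DCs, grouped by the sample titles. The authors' table holds 1 intensity per probe set and array, on a linear scale; the submitters' processing notes name RMA and Affymetrix Expression Console, without versions or a genome build. RMA gives no detection call, and low array signals understate differences. Of 28853 probe sets the platform annotation names 1 gene for 21789, several for 1621 and none for 5443, and only the first kind was used.

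Deposited intensities were put on the log2 scale. For each gene the probe set of highest mean was taken, and kept where 2 or more arrays exceeded their own 40th percentile. Groups were compared with limma 3.58.1 in R 4.3.3 (lmFit and eBayes, two-sided, all arrays in 1 fit, 5 residual degrees of freedom), with Benjamini-Hochberg adjustment over 13356 genes and a threshold of 0.05. A value after ± with a difference is the standard error. Precision is limited by how few arrays there are. The fit was tested on simulated data.

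The members, gene lists and alternatives were chosen with earlier results of these data known. The text names all members, up to 3 genes per direction of each list past the test with the largest differences (not all are printed), and for each called member the 3 genes of nearest centred profile. Fcer1g, Prg3, Ear6, Il5ra, Siglecf, Adgre1, Alox15, Ccr3, Car1, Car2, Rhag, Klf1, Pf4, Gp9, Itga2b, Ppbp, Ly6g, Cma1, Mcpt1, Mcpt2, Mcpt4, Tpsb2, Cd200r3 and Il4 were named after their values were seen. Deviations from the group mean correlated across genes between Zeb2low and Zeb2hi arrays of number 1 (r = 0.478), 2 (0.407) and 3 (0.308). The CDP arrays thus went together by number in the values, though the labels give the numbers no meaning. Same-numbered Zeb2low and pre-CD8 DC arrays did not (r = -0.401 for number 1 and -0.587 for number 2). The main fit has no block, so its p-values between the CDP fractions ignore this pairing, and the blocked fits are alternatives. Alternatives were other filters, normalizations, probe set rules, array weights, a variance trend, replicate blocks, fits of 2 groups and omitted arrays. Promoter sequences came from RefSeq, and all 10 members matched a RefSeq symbol.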

Additional observations from a re-analysis of the deposited data

How the results depend on the processing

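Of the 3 comparisons, pre-CD8 DCs against Zeb2low CDPs had the fewest calls, 74 genes. Both comparisons with pre-CD8 DCs rest on 2 arrays of that group. Leaving out Zeb2low array 3 and Zeb2hi array 3 together was added after seeing the data, and the other alternatives were planned. Members called under an alternative are to be read beside all genes called in the same fit. For Zeb2low against Zeb2hi CDPs, array weights gave 1798 higher and 2669 lower of 13356 genes. The main fit gave 601 and 1377. The member counts below therefore do not support a statement about the members as a group.

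Members called between Zeb2low and Zeb2hi CDPs (2) numbered 1 under the stricter filter, 0 after quantile normalization, 0 after centring, 6 with array weights, 1 with the replicate block over all arrays, 5 without Zeb2low array 1 and pre-CD8 DC array 1 (Cpa3, Epx, Hdc, Prg2 and Prss34), 0 without Zeb2low array 3 and Zeb2hi array 3, and 0 to 2 without 1 array. Against Zeb2hi CDPs, members called in pre-CD8 DCs (1) numbered 2 under the stricter filter, 2 after quantile normalization, 2 with the replicate block, 3 in a fit of those groups alone, 2 without Zeb2low array 1 and pre-CD8 DC array 1, 0 without Zeb2low array 3 and Zeb2hi array 3, and 1 to 3 without 1 array. Against Zeb2low CDPs (0) there was 1 without Zeb2low array 1 and pre-CD8 DC array 1, which was Prg2.

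Genes called between the CDP fractions (1978) numbered 4467 with array weights, 4070 with the replicate block over the CDP arrays alone, 34 without both arrays numbered 3 and 521 to 2224 without 1 array. For pre-CD8 DCs, genes called against Zeb2low CDPs (74) numbered 15 with the replicate block over all arrays, 16 in a fit of those groups alone, 44 without Zeb2low array 1 and pre-CD8 DC array 1, 0 without the arrays numbered 3 (1108 at an unadjusted p under 0.05) and 21 to 147 without 1 array. Against Zeb2hi CDPs (2352) they numbered 717 without the arrays numbered 3 and 1172 to 2775 without 1 array. Centring moved the share of higher genes among calls between pre-CD8 DCs and Zeb2low CDPs from 60.8% to 72.3%.

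Signs changed mainly between pre-CD8 DCs and Zeb2low CDPs. Cpa3 (-0.05) became 0.0256 after quantile normalization, 0.0429 after centring, 0.21 with the replicate block over all arrays, 0.38 without the arrays numbered 3, and -0.61 to 0.51 without 1 array. Mcpt8 (-0.12) became 0.0722 with the block, 0.44 without the arrays numbered 3 and -0.57 to 0.44 without 1 array. Prg2 (-0.10) became 0.49 with the block, 0.83 without the arrays numbered 3 and -2.99 to 2.80 without 1 array. Epx (-0.35) became 0.0825 without the arrays numbered 3 and -0.72 to 0.0825 without 1 array. Without Zeb2low array 1 and pre-CD8 DC array 1, Prss34 (0.86) became -0.20 and Hdc (0.55) became -1.77, the latter spanning -1.20 to 2.29 without 1 array. Against Zeb2hi CDPs, Prg2 spanned -0.21 to 1.90 without 1 array for Zeb2low CDPs and -2.27 to 3.52 for pre-CD8 DCs, and the latter was -2.27 without Zeb2low array 1 and pre-CD8 DC array 1. Except for the lost arrays and genes of a stricter filter, the cause of these changes was not tested. The stricter filter removed Fcer1a and Epx from the test. Over all alternatives and named genes, 993 differences kept sign and side of the threshold, 22 passed in addition, 168 no longer passed and 25 changed sign.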

Other observations

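Markers of other cells that a marrow sort could hold were counted in the same fit. Of 5 tested T and NK cell markers 4 were higher in Zeb2low than in Zeb2hi CDPs, and 1 to 5 were called without 1 array. The most different was Thy1, a surface protein of T cells, innate lymphoid cells and some progenitors (2.22 ± 0.14, adjusted p = 0.00018). For pre-CD8 DCs against Zeb2hi CDPs 2 were higher (1 to 3 without 1 array). Their summed linear signal was 173 to 182 in Zeb2hi CDPs, 431 to 511 in Zeb2low CDPs and 353 to 416 in pre-CD8 DCs. Of 6 tested monocyte markers 1 was lower in Zeb2low CDPs (0 to 2 called without 1 array) and 3 were lower in pre-CD8 DCs than in Zeb2hi CDPs (2 to 4). The clotting factor gene F13a1 was the lowest of these in pre-CD8 DCs (-3.79 ± 0.53, adjusted p = 0.00264).

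Of 7 tested genes of primary granules and promyelocytes 1 was higher and 1 lower in Zeb2low than in Zeb2hi CDPs (1 to 3 called without 1 array), the lower being the protease gene Prtn3 (-2.23 ± 0.34, adjusted p = 0.00579). Of 4 tested B cell markers 1 was higher and 1 lower (1 to 2 called without 1 array), the receptor chain genes Cd79a (0.96 ± 0.21, adjusted p = 0.0204) and Cd79b (-1.06 ± 0.17, adjusted p = 0.00683). Of 6 tested plasmacytoid DC markers 3 were higher in Zeb2low CDPs (0 to 3 without 1 array). Of 13 DC progenitor and cDC1 markers 7 were higher and 1 lower in Zeb2low CDPs (7 to 9 called without 1 array), and 9 and 2 in pre-CD8 DCs against Zeb2hi CDPs (11 called in each of the 8 fits).

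Nearest profiles of the uncalled members were sought after their values were seen. For Gata2 they were Scai, Ncoa2 and Cbx7, with root mean square differences of 0.05, 0.06 and 0.07 on the log2 scale. For Mcpt8 they were Far2, Nfia and the member Epx, each at 0.37. For Prss34 the nearest was Prom1, at 0.31. For Prg2, Jchain and Selenon followed Ear6, at 1.14 and 1.16.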
